A study of Homo sapiens with 6 samples.

Results

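The intergenic regions described here were places where a peak of 2 SWI/SNF subunits, BRG1 and SMARCC2, was called in both of 2 prostate cancer cell lines. On chromosomes 1 to 22 and X, overlapping peaks of the 4 lists (by 1 bp or more) were merged, and this gave 65315 regions. The members were chosen by 3 measures: a peak in all 4 lists, a width under 4000 bp, and a midpoint outside every RefSeq protein-coding gene and more than 1 kb from any protein-coding gene end. The rule left 4006 regions. Being in all 4 lists was therefore no result, and neither was a level above the calling threshold. The cells were LNCaP, an androgen-dependent human prostate adenocarcinoma line, grown with no stated drug, and MR49F, an enzalutamide-resistant line derived from LNCaP and grown in 10 µM enzalutamide, an antiandrogen. Line and drug cannot be told apart in this design. Chromatin was cross-linked with 2 mM DSG and then formaldehyde in all samples, and precipitated with an antibody to BRG1 or to SMARCC2. Each line and antibody had 1 library, so there was no replicate and no test was made between lines or antibodies, and the input sample of each line was not analysed here.

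SWI/SNF is a large complex that uses ATP to slide or eject nucleosomes. BRG1, the product of SMARCA4, is the ATPase of the complex, and SMARCC2, also called BAF170, is a scaffold subunit around which the complex is assembled. Away from promoters the complex is found mostly at enhancers, where it keeps DNA open for transcription factors, and in prostate cells these include FOXA1. A distal region carries no name of its own, so each is given below by its position in GRCh38 and its nearest protein-coding gene, without any claim that it acts on that gene.

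The sequences that could be shown were those annotated inside the regions. 11 regions overlapped 13 miRNA hairpins. The 3p arms of miR-193a and miR-193b have the same seed, bases 2 to 8, and so do those of miR-132 and miR-212. They are shown with let-7i-5p, miR-203a-3p, miR-9-5p and miR-378g, whose hairpins lay in 4 further regions, as mature sequences from RefSeq (GRCh38) with the seed in capitals.
hsa-miR-193a-3p, chr17:31560050-31560071, plus strand: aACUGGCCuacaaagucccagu
hsa-miR-193b-3p, chr16:14304017-14304038, plus strand: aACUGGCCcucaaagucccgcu
hsa-miR-132-3p, chr17:2049929-2049950, minus strand: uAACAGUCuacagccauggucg
hsa-miR-212-3p, chr17:2050290-2050310, minus strand: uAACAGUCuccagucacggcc
hsa-let-7i-5p, chr12:62603691-62603712, plus strand: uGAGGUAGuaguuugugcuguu
hsa-miR-203a-3p, chr14:104117469-104117490, plus strand: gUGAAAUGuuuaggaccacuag
hsa-miR-9-5p, chr15:89368032-89368054, plus strand: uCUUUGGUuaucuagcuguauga
hsa-miR-378g, chr1:94745880-94745899, minus strand: aCUGGGCUuggagucagaag

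In all, 136 regions, some of which also hold a hairpin, contained 151 starts of non-coding genes, each of them an lncRNA. At 20 of these starts, the summits of all 4 lists fell inside the 300 bases of the RefSeq promoter table, which run from 250 before the start to 50 after it. The 6 shown are those of LOC105374702, LOC105378554, LOC124902547 and DMXL1-DT, the 4 strongest of the 20, then LOC100507002, the next, which has many CpGs, and LINC02889, which holds an AP-1 motif. The windows are printed on the strand of the gene, with matches to 10 motifs on either strand in capitals, and matches that overlap each other joined. The motifs were AP-1 TGANTCA, forkhead TGTTTAC, the steroid receptor hexamer AGAACA, the GATA-factor motif AGATAA, HOXB13 CCAATAAA, ETS CCGGAAG, TEAD GGAATG, the CTCF core CCACNAG, the E-box CACGTG and GRHL AACCGGTT. A match describes letters and is not a binding site.
LOC105374702, chr5:29485395-29485694, minus strand: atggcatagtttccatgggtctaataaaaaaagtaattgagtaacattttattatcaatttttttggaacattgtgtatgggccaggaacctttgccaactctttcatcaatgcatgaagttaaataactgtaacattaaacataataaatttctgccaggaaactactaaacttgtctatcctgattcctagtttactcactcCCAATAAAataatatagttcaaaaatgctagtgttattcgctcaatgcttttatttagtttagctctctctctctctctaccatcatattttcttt
LOC105378554, chr10:128691330-128691629, minus strand: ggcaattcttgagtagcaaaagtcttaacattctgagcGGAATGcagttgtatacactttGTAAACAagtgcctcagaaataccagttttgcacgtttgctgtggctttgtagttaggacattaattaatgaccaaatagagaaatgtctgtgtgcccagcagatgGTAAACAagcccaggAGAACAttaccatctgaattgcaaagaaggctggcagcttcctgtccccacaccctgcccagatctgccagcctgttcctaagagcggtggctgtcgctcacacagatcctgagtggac
LOC124902547, chr10:57925014-57925313, plus strand: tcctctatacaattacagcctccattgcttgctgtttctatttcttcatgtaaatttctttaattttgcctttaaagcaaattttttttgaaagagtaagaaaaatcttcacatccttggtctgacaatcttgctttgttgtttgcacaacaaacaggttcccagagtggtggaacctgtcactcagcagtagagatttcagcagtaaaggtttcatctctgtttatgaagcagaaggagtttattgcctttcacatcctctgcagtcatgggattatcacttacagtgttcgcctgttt
DMXL1-DT, chr5:119037612-119037911, minus strand: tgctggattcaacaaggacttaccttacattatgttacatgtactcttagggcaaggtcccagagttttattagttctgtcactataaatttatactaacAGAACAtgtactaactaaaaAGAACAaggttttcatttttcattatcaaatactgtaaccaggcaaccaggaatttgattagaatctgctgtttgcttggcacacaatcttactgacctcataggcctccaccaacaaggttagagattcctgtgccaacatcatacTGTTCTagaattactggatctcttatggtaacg
LOC100507002, chr17:65100562-65100861, plus strand: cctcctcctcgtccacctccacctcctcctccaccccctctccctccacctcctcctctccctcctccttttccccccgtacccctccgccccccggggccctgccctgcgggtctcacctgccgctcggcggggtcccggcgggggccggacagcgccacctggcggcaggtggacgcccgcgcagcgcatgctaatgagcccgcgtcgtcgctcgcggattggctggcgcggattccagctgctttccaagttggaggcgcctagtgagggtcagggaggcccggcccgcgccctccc
LINC02889, chr7:17558860-17559159, minus strand: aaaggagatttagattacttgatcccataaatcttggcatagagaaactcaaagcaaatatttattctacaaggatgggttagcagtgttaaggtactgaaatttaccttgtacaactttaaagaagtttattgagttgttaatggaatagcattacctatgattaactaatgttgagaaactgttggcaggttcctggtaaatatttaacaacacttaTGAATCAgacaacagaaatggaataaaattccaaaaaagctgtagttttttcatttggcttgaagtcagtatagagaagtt

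Of all 65315 regions, 14863 (22.8%) had a peak in every list. Among the 22951 regions between genes and under the width limit, the share was 17.5% (Wilson 95% interval 17.0 to 18.0, counting error only), which is the 4006 regions. The share was higher inside genes, at 21.9% (21.5 to 22.4), and highest within 1 kb of gene ends, at 31.0% (30.2 to 31.9). A further 151 regions between genes were in all 4 lists but at or over 4000 bp wide. Where only 3 lists had a peak, in 3109 regions between genes, the list without one was LNCaP SMARCC2 in 53.1% of cases, which was also the shortest list with 25639 peaks against 36101, 44229 and 47526 in LNCaP BRG1, MR49F BRG1 and MR49F SMARCC2. The regions were short, with a median of 1408 bp, and 92.8% had exactly 1 peak in each list.

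**Figure D1:**
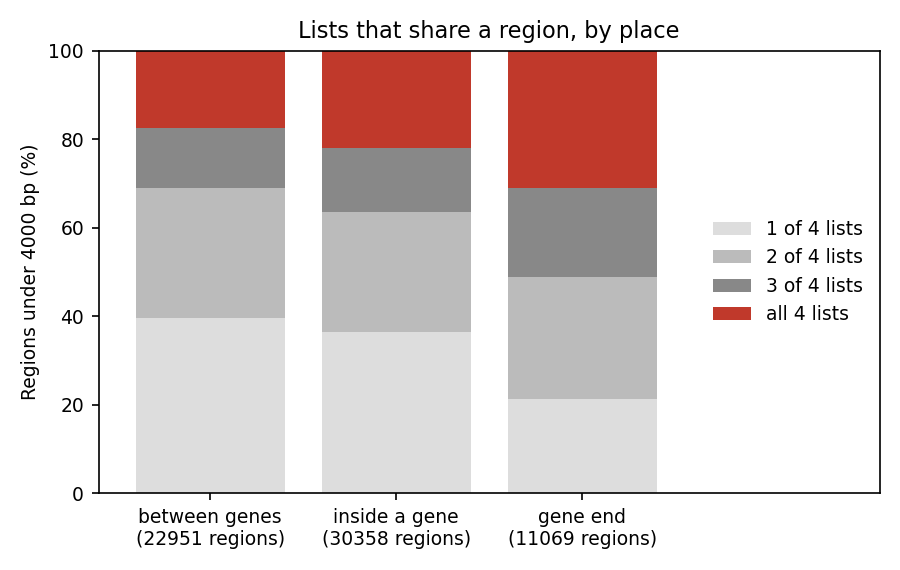
Percentage of regions under 4000 bp with a peak in 1, 2, 3 or all 4 lists (stacked bars, y axis) between genes, inside genes and at gene ends (x axis). The red segment for regions between genes is 17.5%, against 21.9% inside genes and 31.0% at gene ends.

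As a description of marker genes, a peak lay over or within 1 kb of 30, 27, 32 and 31 of 35 androgen-response genes in LNCaP BRG1, LNCaP SMARCC2, MR49F BRG1 and MR49F SMARCC2. For luminal prostate genes it was 9, 5, 9 and 10 of 14, and for housekeeping genes 9, 5, 11 and 11 of 12. Basal and mesenchymal genes, at 6, 5, 8 and 8 of 12, had peaks about as often as luminal genes, so these lists did not separate the 2 cell types. For neuroendocrine genes it was 4, 4, 10 and 12 of 15, for leukocyte genes 3, 1, 2 and 2 of 10, and for liver and muscle genes 0, 1, 2 and 4 of 11. The number of peaks also differs between the 4 lists. The share over all protein-coding genes was not counted, so these counts describe the lists and do not test the cell labels.

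The deposited fold and p-value of each peak were solved for the number of tags piled up at its summit, and this was divided by the number an even spread of that library's tags would give. This multiple is called summit coverage below. The division takes depth into account. Estimated depths were 25.2 and 26.6 M tags (M, mega) for LNCaP BRG1 and SMARCC2, and 20.4 and 18.5 M tags for MR49F BRG1 and SMARCC2. The median region had 33 tags at its LNCaP BRG1 summit and 34 at its LNCaP SMARCC2 summit, then 36 and 40 in MR49F. As summit coverage the medians were 9.96 and 9.86 in LNCaP, and 13.8 and 16.7 in MR49F. The regions made up 11.4% of LNCaP BRG1 peaks but 29.5% of its strongest 10%. The same step was seen in LNCaP SMARCC2 (16% and 32.6%), MR49F BRG1 (9.24% and 23.5%) and MR49F SMARCC2 (8.66% and 24.0%). These shares describe the choice as well, since a peak in every list is more often a strong peak.

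1 region had the highest −log10 q-value of all 4006 in every list. It was chr3:122650965-122653625, which lay 13.2 kb from PARP15, a gene for a mono-ADP-ribosyltransferase. Its summits held 555 tags in LNCaP BRG1, 1161 in LNCaP SMARCC2, 711 in MR49F BRG1 and 1088 in MR49F SMARCC2. The 4 summits lay within 13 bp of each other. Second came chr5:15356040-15358184, 143 kb from FBXL7, which encodes an F-box subunit of a ubiquitin ligase, with 239, 468, 349 and 566 tags in the same order. Next was chr4:20638140-20640274, 18.6 kb from SLIT2, a secreted guidance ligand, with 164, 317, 259 and 380 tags and summits within 4 bp. In all 3 the SMARCC2 library had more tags than the BRG1 library of its line. The others of the first 10, ordered by each region's poorest rank over the 4 lists, were nearest to AGTR1, the angiotensin II receptor, C5orf46, IZUMO3, ZPLD1, MKRN3, TGM3, an epidermal transglutaminase, and POU2AF2. Their summits spanned 6 to 40 bp, and none lay inside an annotated non-coding gene. MKRN3 stood out among them between lines, with 95 and 129 tags in LNCaP but 311 and 423 in MR49F, at a background ratio of 1.94 and 1.56.

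The order of strength was closer between the 2 antibodies in a line than between lines with 1 antibody. By −log10 q-value over the 4006 regions, the Spearman correlation was 0.68 between BRG1 and SMARCC2 in LNCaP and 0.84 in MR49F, and between lines it was 0.42 for BRG1 and 0.52 for SMARCC2. By summit coverage, the same 4 values were 0.76, 0.86, 0.53 and 0.57. The regions share libraries and lie at different backgrounds, so these values are descriptions. At gene ends they were lower by summit coverage, at 0.56, 0.73, 0.44 and 0.49.

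Summit coverage was mostly higher in MR49F. The ratio of MR49F to LNCaP had a median of 1.39 for BRG1 and 1.67 for SMARCC2, and it was above 1 in 80.0% and 90.1% of the regions. The ratio of local background had medians of 1.08 and 1.07. Local background was taken relative to the commonest value in its library, which was also the lowest at these regions. Its ratio is thereby held near 1 and is no independent contrast to coverage. The shift was not specific to regions between genes, since the medians at gene ends were 1.45 and 1.61. Within LNCaP the 2 antibodies gave equal coverage, with a median SMARCC2 to BRG1 ratio of 0.996. In MR49F that ratio was 1.23, and at gene ends it was 0.935 in LNCaP and 1.05 in MR49F. Whether efficiency of precipitation moved with these ratios was not tested.

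**Figure D2:**
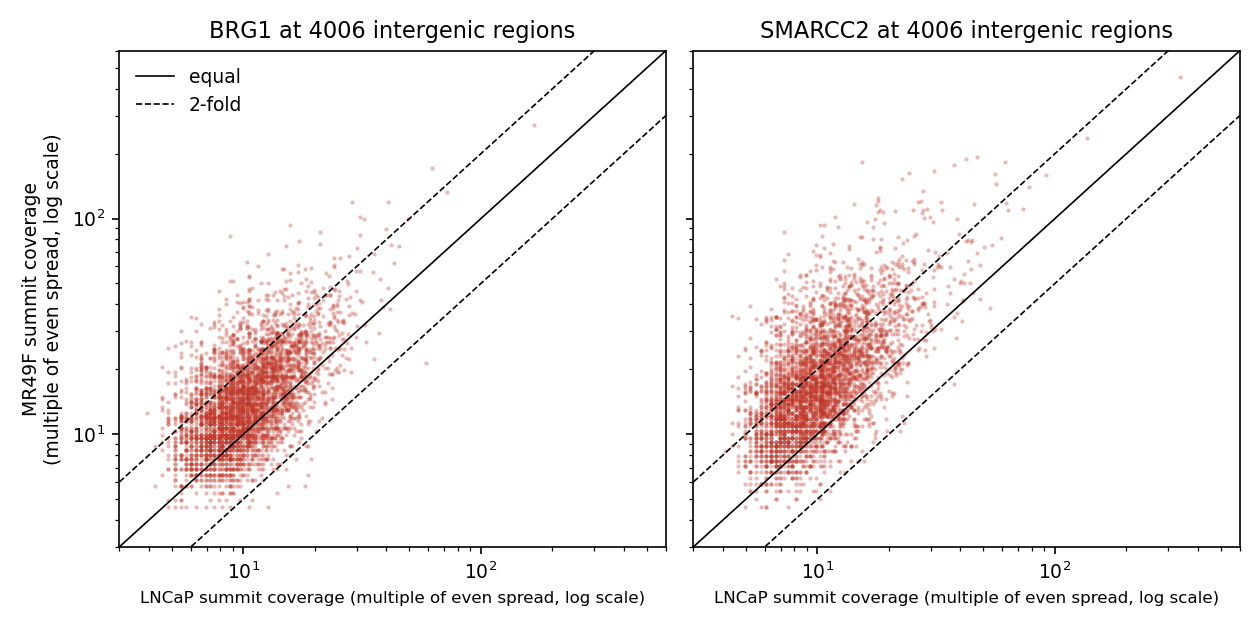
Summit coverage in MR49F (y axis) against LNCaP (x axis), as multiples of an even spread on log scales, for BRG1 (left) and SMARCC2 (right), with 1 point per region. The solid line marks equal coverage and the dashed lines 2-fold, and most points lie above equality, with median ratios of 1.39 and 1.67.

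Coverage was over 2-fold higher in MR49F with both antibodies at 603 regions, or 15.1% (14.0 to 16.2). The background for this was 12.4% of regions of all places in all 4 lists. The share was 13.2% inside genes and 7.55% at gene ends. These 603 regions lay farther from genes than the other 3403, at a median of 67.7 against 51.3 kb. Their median coverage in LNCaP was 9.05 for BRG1 and 9.86 for SMARCC2, beside 10.3 and 9.86 in the others. In MR49F it was 24.1 and 34.3 against 13.0 and 15.5. The 603 were picked by the ratio of these same values, so the gap in coverage follows from the choice and is no result. Local background was also over 2-fold higher with both antibodies in 60 of the 603, and in 161 of the other 3403. Measured relative to the median ratio over all places, coverage passed 2-fold with both antibodies in 147 regions (3.67%), beside 2.63% of regions of all places.

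The opposite change was rare. Coverage was over 2-fold higher in LNCaP with both antibodies at 3 regions (0.0749%), beside 0.0568% over all places. Relative to the median ratio it was 45 regions (1.12%), beside 0.894% of regions of all places. The 3, named after their values were seen, lay near TBL1XR1, CDH5 and PXDC1. The region near TBL1XR1, chr3:176757190-176761141, 260 kb from this subunit gene of the NCoR corepressor complex, had 195 tags with BRG1 and 129 with SMARCC2 in LNCaP, and 56 and 41 in MR49F. Its background ratio was 0.938 for BRG1 and 0.895 for SMARCC2, so the background hardly differed. At CDH5, the vascular cadherin, 46 and 39 tags stood against 14 and 13, but the background ratio was 0.312 and 0.323. At PXDC1 the tags were 35 and 35 in LNCaP and 12 and 12 in MR49F, with background ratios of 1.04 and 0.973.

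Single regions in the other direction reached far higher values. A region 1.45 kb from TRIM35 had 29 and 53 tags in LNCaP (BRG1, SMARCC2) and 216 and 439 in MR49F, ratios of 9.44 and 11.9, and its background ratio was 0.834 and 0.840. At chr5:127478965-127481962, 19.2 kb from MEGF10, a receptor for engulfment, the tags went from 52 and 78 to 245 and 364. The region that ranked low in LNCaP and rose most in rank in MR49F was chr11:130636821-130639542, 162 kb from ADAMTS15, a secreted metalloprotease. It had 21 and 25 tags in LNCaP and 90 and 208 in MR49F. Others of the first 5 were near DLG2, a synaptic scaffold, SOX11, a transcription factor of the developing nervous system, and SERPINA1. At the region near SERPINA1, the gene of liver antitrypsin, ratios of 1.64 and 2.56 came with background ratios of 0.230 and 0.227. The 5 whose rank was better in LNCaP by the largest gap lay near OVGP1, C16orf95, PXDC1, GGCT and BBS5. The background ratio was 2.95 and 2.80 at OVGP1 and 2.61 and 2.56 at GGCT.

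By the rule, every region had a peak of both BRG1 and SMARCC2 in both lines, which limits how far they could differ here. SMARCC2 coverage was over 2-fold that of BRG1 in both lines at 6 regions (0.150%), and BRG1 coverage over 2-fold that of SMARCC2 in both lines at 2 (0.0499%). Over all places these shares were 0.0993% and 0.0142%. The 2 with more BRG1 were picked out by these values. The first, chr11:65496101-65499877, has its midpoint inside MALAT1, an abundant nuclear lncRNA. It had 64 BRG1 against 26 SMARCC2 tags in LNCaP and 79 against 27 in MR49F. The second was chrX:115732257-115733668, 82.1 kb from PLS3, an actin-bundling protein, with 207 against 88 and 447 against 155 tags. Among those with more SMARCC2 were regions near RFC3, EPHA7, SLITRK1, NCAM2 and RFPL4B. The region 521 kb from EPHA7, an ephrin receptor, had 80 BRG1 and 193 SMARCC2 tags in LNCaP, and 159 and 385 in MR49F.

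The 4 libraries placed their summits close together. In 64.0% (62.5 to 65.4) of the regions all 4 summits lay within 200 bp, and the median span was 126 bp. For regions in all 4 lists inside genes the share was 54.2% (53.0 to 55.3), and at gene ends 29.6% (28.1 to 31.2) with a median span of 319 bp. Width moved with this. Among regions of 1000 to 1500 bp the shares were 67.1%, 61.3% and 38.6%, a comparison added after the data were seen. Summit coverage moved with it too. At a mean summit coverage of 10 to 15 the shares were 61.7%, 51.9% and 29.7%, and at 20 to 40 they were 89.3%, 87.7% and 78.4%. By pairs, the median distance between summits was 44 bp between the antibodies in MR49F, 63 bp between the antibodies in LNCaP, 59 bp between lines for BRG1 and 53 bp for SMARCC2.

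**Figure D3:**
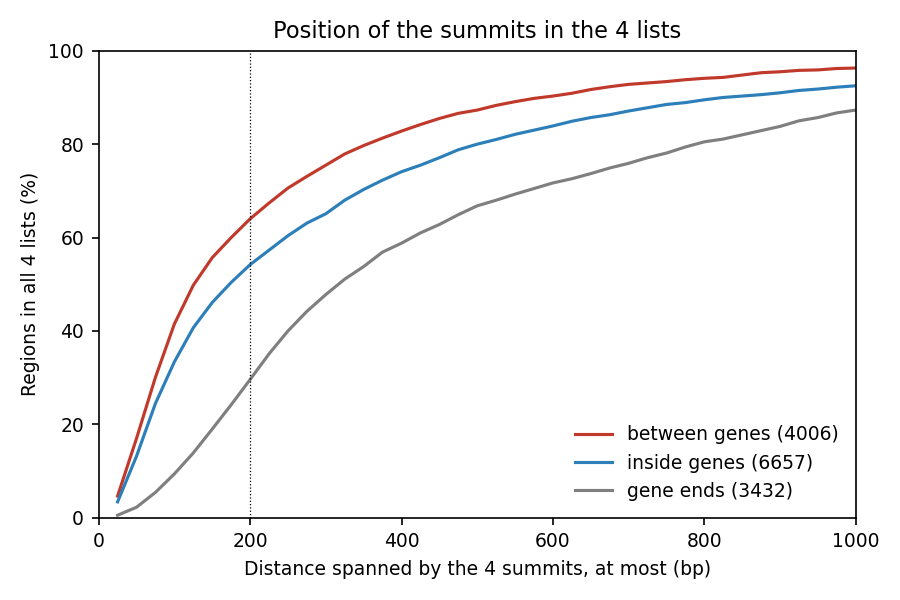
Cumulative percentage of regions in all 4 lists (y axis) whose 4 summits span at most the distance on the x axis, in bp, for regions between genes (red), inside genes (blue) and at gene ends (grey). At 200 bp, the dotted line, the values are 64.0%, 54.2% and 29.6%.

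The regions varied along their own order of strength. In the strongest 25% by mean rank, 1002 regions, 90% had 4 summits within 200 bp, and in the weakest 25% the share was 34.4%. The strongest were wider, with a median of 1634 against 1232 bp, and lay farther from genes, at 68.9 against 44.7 kb. Their median ratio of MR49F to LNCaP was 1.62 for BRG1 and 2.00 for SMARCC2, against 1.20 and 1.44 in the weakest. The ratios and the order share the same libraries.

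The median distance to the nearest protein-coding gene end was 53.6 kb, with 63.4% (61.9 to 64.9) of regions within 100 kb. Regions between genes in 1 to 3 lists had a median of 55.4 kb and a share of 61.9% (61.2 to 62.6). At the far end, 352 regions (8.79%) lay over 500 kb from any protein-coding gene, and 9.33% of those in 1 to 3 lists did. Of the 5 farthest, 2 lay at 1981 and 1937 kb from NCAM2, a neural adhesion gene on chromosome 21. The nearer of these, chr21:23479882-23481501, had 52, 57, 48 and 52 tags in LNCaP BRG1, LNCaP SMARCC2, MR49F BRG1 and MR49F SMARCC2, and summits within 20 bp. Its ratios of MR49F to LNCaP coverage were 1.17 for BRG1 and 1.31 for SMARCC2. The farthest, 4751 kb from OR11H1 on chromosome 22, had 58, 44, 29 and 41 tags, with coverage ratios of 0.634 and 1.34.

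Within 100 kb, 2046 of 19974 protein-coding genes (10.2%) were nearest to at least 1 region. REEP3, an endoplasmic reticulum protein, and TLE1, a corepressor, had 5 each. Among the genes with 4, the first by name were ADGRL4, an adhesion receptor, CLXN, DPT, FHIT, INSIG1, a regulator of sterol synthesis, MBNL1, a splicing factor, OR4F16 and PARP8. At ADGRL4 the median coverage was 9.20 and 17.3 in LNCaP (BRG1, SMARCC2) and 25.8 and 44.1 in MR49F, while at INSIG1 it was 9.66 and 8.56 against 11.7 and 11.1. Without the limit of 100 kb, USP25, a ubiquitin protease, came first with 18 regions, 145 to 707 kb away. They were 16.1% of the 112 regions between genes nearest to it, beside 17.5% over all regions between genes under the width limit. Of the 18, 17 lay inside MIR99AHG, which is described below. MAT2B and MYC followed with 11 each, of 28 (39.3%) and of 50 (22%). CITED2, HS3ST1, a heparan sulfate sulfotransferase, and TBL1XR1 had 10 each, of 30 (33.3%), 21 (47.6%) and 53 (18.9%). Of the nearest genes within 100 kb, counted per region, 28.2% (26.5 to 30.0) also carried a region in all 4 lists at 1 of their ends. For regions in 1 to 3 lists this was 25.4% (24.7 to 26.2), for those in 3 lists 27.0% (25.1 to 29.0), and over all protein-coding genes 19.8%.

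Some regions stood in rows. With gaps of at most 12.5 kb, the distance commonly used to join enhancers into clusters, 622 regions (15.5%) formed 294 chains of 2 or more. Of these chains 29 had 3 or more members and 4 had 4 or more. The longest, chr21:16368033-16403977, held 5 in 35.9 kb inside MIR99AHG, with coverage of 6.64 to 9.96 in LNCaP BRG1 and 7.52 to 18.8 in MR49F SMARCC2. These 5 are among the regions counted for USP25 above. A chain of 4 lay 313 kb from RASGRP1, a Ras activator, and its coverage in MR49F SMARCC2 ran from 10.9 to 110. The chain of 4 at chr7:16809787-16834348, 5.46 kb from AGR2 at its closest, ran from 9.96 to 23.2 in LNCaP BRG1 and from 12.5 to 43.4 in MR49F SMARCC2. AGR2 and its neighbour AGR3 encode secretory-pathway protein disulfide isomerases of luminal epithelium. The fourth lay 163 kb from HS3ST1. In the chain of 3 at PMEPA1, coverage was 7.54 to 8.75 in LNCaP BRG1 and 27.1 to 42.4 in MR49F BRG1, so the ranges of the lines were apart.

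For 12 lists of genes grouped by function, the share of neighbouring intergenic regions in all 4 lists was set beside a base, with no test. The base is 17.8% (17.2 to 18.5) of 14264 regions within 100 kb of a nearest protein-coding gene. For androgen-response genes it was 27 of 97 regions, 27.8% (19.9 to 37.5), at 18 of 35 genes. For receptors, pioneer factors and their partners it was 24 of 115, 20.9% (14.4 to 29.2), at 16 of 40 genes, and for growth factor signalling 14 of 60, 23.3% (14.4 to 35.4), at 8 of 22 genes. For luminal prostate genes it was 7 of 32, 21.9% (11.0 to 38.8). Genes of AP-1 and stress factors had 20 regions nearby, of which 0 were in all 4 lists. By the limit of 3 counts this allows a share of up to 15%, and the Wilson interval reaches 16.1%. Chromatin remodelling genes had 1 of 18, at ARID1B, and cell cycle, MYC and survival genes 3 of 32. The markers of other cell types had 1 of 10 for neuroendocrine cells, at NEUROD1, 2 of 15 for basal and mesenchymal cells, at SNAI1 and CDH2, 1 of 5 for leukocytes, at LYZ, and 1 of 8 for liver and muscle, at SERPINA1. Housekeeping genes had 1 of 8, at ACTB. In 10 of the 12 lists the interval held the base, and the other two were the androgen-response list, above it, and the AP-1 list, below it. Regions at 1 gene are not independent of each other, which the intervals do not take into account.

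**Figure D4:**
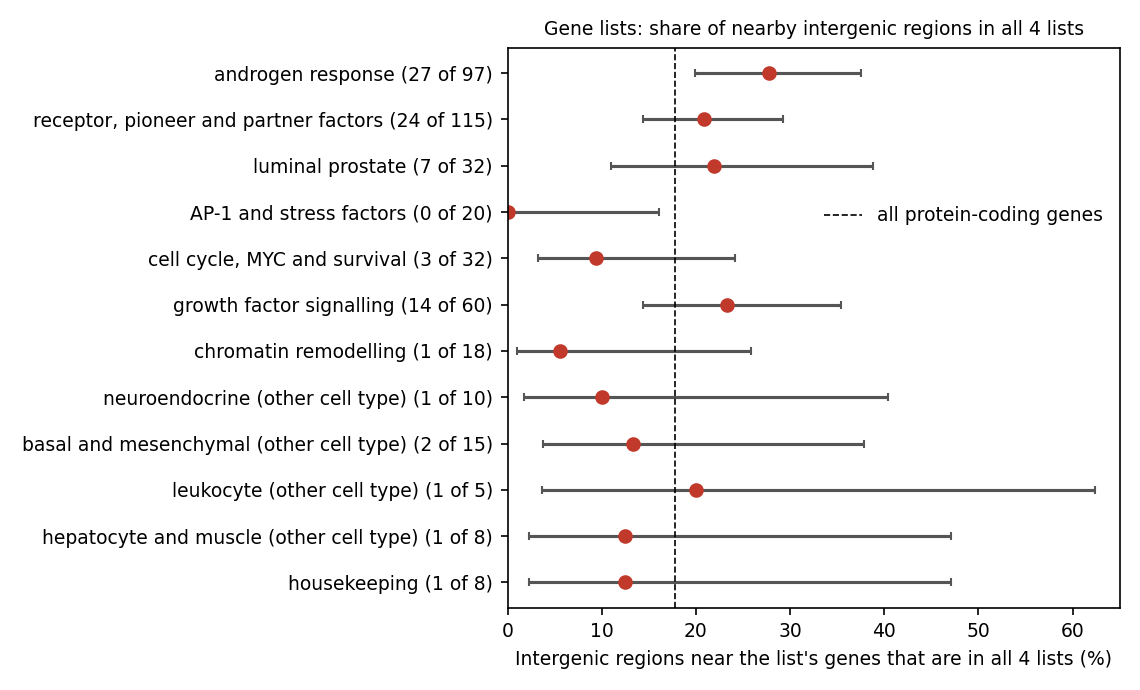
Percentage of the intergenic regions within 100 kb of a list's genes that were in all 4 lists (x axis; points, with Wilson 95% intervals as bars), for 12 gene lists (y axis; regions in all 4 lists and all such regions in brackets). The dashed line is the 17.8% for all protein-coding genes, and the androgen-response point stands at 27.8%.

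Of the 27 regions near androgen-response genes, 12 (44.4%) had over 2-fold higher coverage in MR49F with both antibodies, beside 15.1% of all 4006. They lay at 9 genes, KLK3, PMEPA1, ACP3, NDRG1, ZBTB16, SGK1, HPGD, ADAM7 and C1orf116, and those at 1 gene are not independent of each other. Relative to the median ratio over all places, 3 of the 27 passed. The median ratio in the list was 1.71 for BRG1 and 1.85 for SMARCC2, beside 1.35 and 1.63 over all regions within 100 kb of a gene, and its median background ratio was 1.28 and 1.24. KLK3 encodes prostate-specific antigen and has a well-studied upstream enhancer. Its region, chr19:50849027-50852524, 4.14 kb from the gene, had 64 and 75 tags in LNCaP (BRG1, SMARCC2) and 119 and 150 in MR49F, ratios of 2.36 and 2.88 at a background ratio of 0.934 and 0.923. PMEPA1, an androgen-induced inhibitor of TGF-β signalling, had 3 regions with ratios of 3.10 to 5.02 for BRG1 and 2.81 to 6.77 for SMARCC2. The background ratio of 1 of these was 4.31 and 4.24. At NDRG1, a stress and differentiation gene, the stronger of 2 regions had 30 and 26 tags in LNCaP and 68 and 83 in MR49F.

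Over the 27 regions, the BRG1 ratio was above 1 in 22 and the SMARCC2 ratio in 24, and some genes had regions on both sides of equality. ZBTB16, a zinc finger repressor, had 3 regions. The first had 39 and 35 tags in LNCaP against 71 and 102 in MR49F, the second 34 and 31 against 28 and 17, and the last 27 and 26 against 29 and 26. The 2 regions near SGK1, a kinase, had BRG1 ratios of 2.80 and 0.822. STEAP1, a prostate cell-surface antigen, had its stronger region at 77, 88, 99 and 102 tags in LNCaP BRG1, LNCaP SMARCC2, MR49F BRG1 and MR49F SMARCC2. TMPRSS2, the protease whose promoter is fused to ERG in many prostate cancers, had 1 region of 26, 22, 22 and 20 tags, a weak one in every library. Its coverage ratios were 1.07 for BRG1 and 1.31 for SMARCC2. KCNN2, a potassium channel, had a BRG1 ratio of 0.812, and IGF1R a SMARCC2 ratio of 0.720.

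Among receptors and pioneer factors, 2 of 24 regions passed 2-fold with both antibodies. HOXB13, a prostate homeobox factor, had 29 tags with either antibody in LNCaP, and 26 and 16 in MR49F. Its coverage ratio was 1.14 for BRG1 and 0.795 for SMARCC2. KLF4 and CEBPA had 3 regions each. The strongest at KLF4, 51.7 kb away, gave 59, 61, 67 and 69 tags. EHF, an epithelial ETS factor, had 51 and 49 tags against 82 and 77 at the nearer of 2 regions, and CREB3L1, a membrane-bound factor, had 20 and 22 against 53 and 38. In growth factor signalling, EGFR had 3 regions, and the strongest ratio was 3.0 and 3.55 at chr7:54987541-54989889. Of the luminal genes, FOLH1, the prostate-specific membrane antigen, had 47 and 60 tags in LNCaP against 53 and 64.

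Non-coding genes covered 1308 of the 4006 midpoints (32.7%), and lncRNAs alone 29.4% (28.0 to 30.9), beside 26.6% (26.0 to 27.2) of regions in 1 to 3 lists. In regions in 3 lists the lncRNA share was 28.2% (26.7 to 29.8). Of 36 non-coding genes listed for prostate and other cancers, 9 held 36 regions. The share of all non-coding genes that hold a region was not counted, so this is no result about the listed genes. MIR99AHG, the host gene of miR-99a, let-7c and miR-125b-2 on chromosome 21, held 17 of the 36 regions in its 561 kb, of 92 regions of any kind between protein-coding genes there (18.5%). Its strongest, chr21:16079453-16080883, gave 99, 114, 120 and 142 tags in the 4 libraries, and the others stayed between 22 and 63 tags in LNCaP BRG1. Its median ratio was low at 1.08 for BRG1 and 1.33 for SMARCC2. PVT1, the lncRNA next to MYC, held 6 of 35 (17.1%), with a ratio of 1.08 and 1.88. The shares in MIR99AHG and PVT1 were near the 17.5% over all regions between genes and under the width limit.

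SCHLAP1, a lncRNA of aggressive prostate cancer that was reported to bind SWI/SNF, held 4 regions. The one at chr2:180714103-180716811 gave 81 and 108 tags in LNCaP and 52 and 74 in MR49F, coverage ratios of 0.814 and 0.987 at a background ratio of 1.90 and 1.54, while the one at chr2:180798129-180800410 gave 46 and 88 against 109 and 150. Over the 4 regions the BRG1 ratio ran from 0.814 to 3.0 and the SMARCC2 ratio from 0.987 to 2.45. DRAIC, a lncRNA linked to slower prostate tumour growth, held 1 region, with 52 and 47 tags in LNCaP against 146 and 178 in MR49F and summits spread over 445 bp. ARLNC1, an androgen-induced lncRNA, held 1 with 49 and 54 against 40 and 32 tags. Its coverage ratios were 1.03 and 0.853, at a background ratio of 0.513 and 0.387. Outside the listed genes, LOC105370777 on chromosome 15 held 10 of 19 regions (52.6%) and LINC03000 on chromosome 5 held 6 of 11.

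Starts of non-coding genes lay in 136 regions (3.39%, 2.88 to 4.00), against 1.93% (1.74 to 2.13) of regions in 1 to 3 lists. The share was not particular to all 4 lists, since it was 3.63% (3.03 to 4.35) in regions in 3 lists. In regions in 1 list it was 1.22%. The regions in all 4 lists were wider than those in 1 to 3 lists, with a median of 1408 against 675 bp. Per covered length there were 23.9 starts per Mb, against 27.0 in regions in 1 to 3 lists. By number of lists this was 35.9 in 3, 24.2 in 2 and 24.0 in 1, so only the regions in 3 lists stood clearly above. The mean summit lay within 500 bp of 103 of the 151 starts and a median of 310 bp away, and it was upstream at 79 of them. The windows printed above were chosen for holding all 4 summits and reach 250 bases upstream but 50 downstream, which nearly fixes the side. There the mean summit lay upstream of the start by 71 bp at LOC105374702, 133 bp at LOC105378554, 108 bp at LOC124902547, 114 bp at DMXL1-DT, 154 bp at LOC100507002 and 177 bp at LINC02889. LOC105374702, which lies 556 kb from a protein-coding gene, had 48 and 56 tags in LNCaP and 71 and 110 in MR49F. LOC105378554, 565 kb from MKI67, had 47 and 46 against 69 and 80. DMXL1-DT, a divergent transcript of DMXL1, had 60 and 79 against 49 and 51, so its coverage ratio was 1.03 and 0.93.

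By base composition, 30.5% (23.7 to 38.2) of the 151 promoter windows had GC over 55% with a CpG ratio over 0.65, beside 32.9% (28.6 to 37.6) of 410 in regions in 1 to 3 lists. The share was 7.05% of 6706 intergenic starts in no region, and 84.3% of 2925 protein-coding starts in gene-end regions in all 4 lists. LOC100507002 was of the CpG-rich kind, with 73.7% GC and 29 CpGs, and LOC105374702 was not, with 31.0% GC and 1 CpG. Motif shares are given for the 151 windows, the 410, the 6706 starts in no region and all 34961 promoters of the table, in that order. The steroid receptor hexamer AGAACA was found in 25.8% (19.5 to 33.3), 18.5% (15.1 to 22.6), 23.4% (22.4 to 24.5) and 14.8%. The 25.8% was thus above all promoters, while its interval held the share of intergenic starts in no region. AP-1 TGANTCA was found in 11.9% (7.67 to 18.1), 10.5%, 12.2% and 7.68%, forkhead TGTTTAC in 5.96% (3.17 to 10.9), 8.05%, 4.91% and 3.42%, and TEAD GGAATG in 21.9% (16 to 29.1), 15.6%, 18.7% and 14.0%. The GATA-factor motif AGATAA was found in 9.27% (5.60 to 15), 12%, 17.5% (16.6 to 18.5) and 10.3%. For GATA the interval lay below that of the starts in no region, and this was the only one of the 10 motifs for which it did. The CTCF core CCACNAG was found in 10.6% (6.63 to 16.5), 18.5%, 13.6% and 14.2%. ETS CCGGAAG was found in 4.64%, 8.78%, 3.56% and 10.3%, and the E-box CACGTG in 5.30%, 5.37%, 4.58% and 7.27%. HOXB13 CCAATAAA and GRHL AACCGGTT were each found in 1 of the 151 windows (0.662%, 0.117 to 3.66). In the other groups, in the same order, HOXB13 was found in 1.46%, 1.45% and 0.938%. GRHL was found in 0.976%, 0.0298% (0.00818 to 0.109) and 0.134%. For GRHL the interval lay above that of the starts in no region, but it rests on 1 window. These windows are few and all lie at starts, and the sequence at the other summits was not analysed here. Some windows in 1 region overlap each other, which the intervals do not take into account.

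The miRNA hairpins lay in 11 regions (0.275%, 0.153 to 0.491), beside 0.0581% (0.0324 to 0.104) of regions in 1 to 3 lists, which are shorter. In regions in 3 lists the share was 0.129% (0.0500 to 0.330). At MIR378G, inside SLC44A3-AS1, the region had 29 and 41 tags in LNCaP (BRG1, SMARCC2) and 135 and 245 in MR49F, ratios of 5.90 and 8.61, and its background ratio was 1.65 and 1.62. The summits were 1787 bp from the hairpin on average. The pair with a shared seed, miR-193a-3p and miR-193b-3p, came from regions on chromosomes 17 and 16. MIR193A had 32 and 34 tags against 51 and 50, and MIR193B 19 and 28 against 30 and 28. MIR132 and MIR212 shared 1 region, 4.81 kb from HIC1, with 38 and 35 against 51 and 39 tags. MIR203A and MIR203B, which overlap on opposite strands, shared another with 53 and 43 against 68 and 57 tags, where the background ratio was 3.90 and 2.98. MIRLET7I, which carries the let-7 seed, had 32 and 23 against 27 and 32, with coverage ratios of 1.07 and 2.00. MIR9-3 had 21 and 21 against 24 and 11, with coverage ratios of 1.45 and 0.754. By coverage, MIR8087 was the one lower in MR49F with both antibodies, with 62 and 54 tags against 29 and 18, ratios of 0.593 and 0.480, and a background ratio of 0.412 and 0.475. MIR4455 had fewer tags in MR49F with both, 35 and 27 against 18 and 23, but coverage ratios of 0.652 and 1.23.

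**Figure D5:**
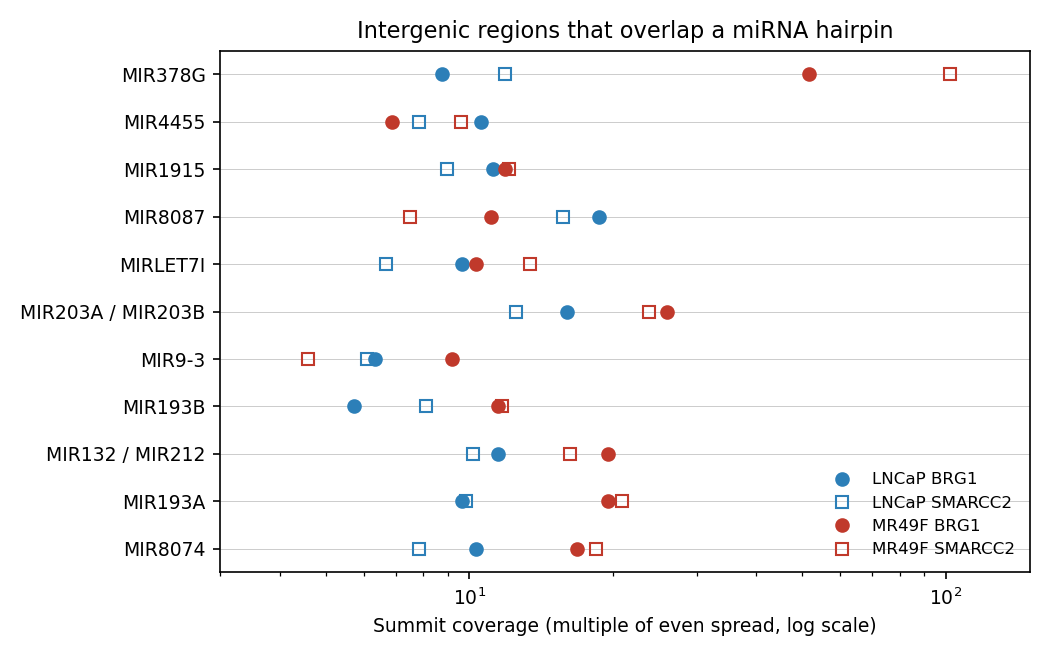
Summit coverage (x axis, multiple of an even spread, log scale) in the 4 libraries (blue LNCaP, red MR49F; circles BRG1, open squares SMARCC2) for the 11 intergenic regions that overlap a miRNA hairpin (y axis). The MIR378G region has the widest gap between lines, from 8.75 and 11.9 in LNCaP to 51.6 and 102 in MR49F.

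The members and other regions nearest to the limits of the rule are given without a test. Just inside the width limit was a region of 3997 bp near SLC22A23, with coverage of 9.05 in LNCaP BRG1 and 13.8 in MR49F SMARCC2. Just outside was one of 4002 bp near ASPH, with 11.5 and 29.2. Just inside the distance limit, 1010 bp from TLE1, the same 2 values were 10.3 and 17.1. Just outside, 996 bp from ZDHHC5, they were 7.54 and 8.35.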

How the data were processed

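ChIP-seq of BRG1 and SMARCC2 was made in LNCaP and MR49F cells. Tools named in the submitters' processing notes were MACS2 2.1.0, SAMtools and BWA 0.7.10, on genome build hg38, without their roles. Each deposited peak list gives, per the file headers' narrowPeak layout, the authors' fold enrichment (a ratio), −log10 p-value and −log10 q-value at the summit, and the lowest −log10 q-value was 2.00 to 2.01. The score column, deposited by the authors for display, was not used, and the lists hold no read counts. From the fold, with MACS2's pseudocount of 1, and the p-value, the summit tags and local background were solved for 100% of peaks. Depth assumes a genome of 2.7 Gb and the smallest peak as fragment length. Neither enters summit coverage, for which the even spread was taken as the commonest local background solved in that library. An error in that background would shift summit coverage for a whole library. The solver was tested on simulated data. Genes, miRNAs and promoters came from RefSeq GRCh38.p14. Python 3.11.15, NumPy 2.4.6, pandas 2.3.3, SciPy 1.17.1 and matplotlib 3.10.9 were used. The members and gene lists were chosen with earlier results of these data known. With 1 library per group no test was possible, and Wilson intervals cover counting error only. The named regions were the 10 whose poorest rank over the lists was best, the 5 farthest from genes, the 5 with the largest rank gap in each direction, those in listed non-coding genes and the 10 genes and 5 chains with most regions. The alternatives changed the overlap, peak threshold, width, gene distance, gap and measure of strength. Sequence around summits was not run, since no genome was used here. Some regions that the naming rule selects are not reported here.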

Additional observations from a re-analysis of the deposited data

Results flagged for a closer look

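Peaks outside chromosomes 1 to 22 and X entered none of the counts above and were singled out as a signal in data the comparisons did not use. They numbered 73 in LNCaP BRG1, 67 in LNCaP SMARCC2, 79 in MR49F BRG1 and 89 in MR49F SMARCC2. This was 0.202%, 0.261%, 0.178% and 0.187% of the peaks of each list. Their median fold enrichment in the authors' lists was 4.15, 4.43, 4.26 and 5.01.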

How the results depend on the processing

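The number of regions, 4006, fell to 2562 when all 4 summits had to lie within 200 bp, to 1680 with reciprocal overlap of 50% and to 1062 with the 10000 strongest peaks of each list. It was 7115 with 3 or more lists and 2526 with non-coding genes also counted as genes. The share within 100 kb of a gene was 63.4%, and 61.7% at a −log10 q of at least 5, 57.3% with the 10000 strongest peaks and 59.6% over 5 kb from genes. The share in non-coding genes went from 32.7% to 31.1% with the 10000 strongest peaks. The share with summits within 200 bp went from 64.0% to 73.6% at a −log10 q of at least 5 and to 87.7% with the 10000 strongest. The Spearman correlation of order by −log10 q became, by fold enrichment, 0.70 in LNCaP, 0.27 between lines for BRG1 and 0.39 for SMARCC2. A gap of 5000 bp left 156 chains of 294. Within 500 kb the highest count per gene was 10 in place of 5, and 1 of the first 10 genes was shared, against 2 within 50 kb. These alternatives were chosen after seeing the data: regions of 1000 to 1500 bp (67.1% with summits within 200 bp), summit coverage for that correlation (0.86, 0.76, 0.53 and 0.57), the median ratio as base (147 regions higher in MR49F and 45 in LNCaP) and division by the background ratio (741 higher in MR49F and 17 in LNCaP), and leaving out LNCaP SMARCC2 (5660 regions). The cause of these shifts was not tested. The sequence windows of 300 and 200 bp were not run. No paired analysis was possible because each line and antibody had 1 library. Depth limits weak regions, where a summit of about 20 tags carries wide counting error.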

Other observations

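The regions were spread unevenly over chromosomes. Of the regions between genes, the share in all 4 lists was lowest on chromosome X, at 10.2% of 800, then 12.8% of 618 on chromosome 18, and highest on chromosome 20, at 20.8% of 586. On chromosome X the median ratio of MR49F to LNCaP coverage was 1.76 for BRG1 and 2.29 for SMARCC2, and its background ratio was 1.5 and 1.48. On chromosome 16 the ratios were 0.972 and 1.17, with background ratios of 0.804 and 0.822. The part of copy number in these values was not tested.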
